A study of Homo sapiens with 10 samples.

Results

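The genes described here are 10 chemokine genes, *CXCL1*, *CXCL2*, *CXCL8*, *CXCL9*, *CXCL10*, *CXCL11*, *CCL2*, *CCL5*, *CCL20* and *CX3CL1*, out of 59386 genes listed for every library. They were chosen by name, with earlier results of these data known, as chemokines known to be released by epithelial cells and leukocytes in inflammation. All 10 were found. RNA was sequenced from VCaP, an epithelial cell line derived from human prostate cancer, after knockdown of 1 of 2 chromatin remodelling ATPases. SMARCA4 is a catalytic subunit of SWI/SNF complexes and SMARCA1 is the ATPase of certain ISWI complexes. *SMARCA4* was targeted with siRNA A or siRNA B and *SMARCA1* with siRNA A or siRNA C, each at 30 pmol in a lipid reagent, and cells were harvested 72 h later. The control libraries carry the genotype label WT, and the sources used here do not say whether they were transfected, or with which siRNA or dose. In every comparison with control, an effect of siRNA transfection itself and an effect of the knockdown therefore cannot be told apart. Each of the 5 conditions had 2 libraries, so there were 4 per knockdown and 2 controls. Knockdown by siRNA is partial and transient, all cells come from 1 line, and the letters of siRNA A for *SMARCA4* and siRNA A for *SMARCA1* stand for different molecules.

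Chemokines are small secreted proteins that guide migrating leukocytes by binding G protein-coupled receptors. CXCL9, CXCL10 and CXCL11 share the receptor CXCR3 on activated T cells and natural killer cells, and their genes are classical targets of interferon signalling through STAT and IRF factors. CXCL1, CXCL2 and CXCL8 carry the ELR motif before their first cysteines, bind CXCR2 and attract neutrophils, and their genes are classical targets of NF-kappaB. CCL2 attracts monocytes through CCR2, CCL5 attracts T cells and monocytes, and CCL20 binds CCR6. CX3CL1, also called fractalkine, is made as a membrane-bound protein and binds CX3CR1. In epithelial tumours, these genes are usually low at rest and are induced by cytokines, interferons and nucleic acid sensors.

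Total counts lay between 23898545 and 34667965 per library. An upper limit of 3 counts for a count of 0 was worth 0.0865 to 0.126 CPM (counts per 1000000, after scaling for library size). *SMARCA4* was at 255 ± 18 CPM in the controls (SD, n = 2) and at 20.1 ± 5.29 CPM in its knockdown (n = 4). *SMARCA1* was at 31.9 ± 0.577 CPM in the controls and at 2.80 ± 0.737 CPM in its own knockdown, and it rose in *SMARCA4* knockdown by 1.07 on the log2 scale (SE 0.18, adjusted p = 0.001). Transcripts of 9 prostate epithelial markers were present in every library. Among 11 leukocyte markers, *CD3D*, *CD2* and *MS4A1* were at 0 in all libraries, and *PTPRC*, which encodes the pan-leukocyte surface protein CD45, had 1 count in total. Their summed level was 2.60 to 2.72 CPM in the controls, 2.56 to 16.2 CPM in *SMARCA4* knockdown and 9.22 to 24.1 CPM in *SMARCA1* knockdown. *LYZ*, the lysozyme gene, had between 48 and 713 counts in the knockdown libraries against 19 and 14 in the controls, and rose by 3.26 and 4.63 on the log2 scale. *CD14* fell by 1.36 and 0.67. The summed level of 6 fibroblast markers was 23.7 to 27.4 CPM in the controls, 18.2 to 35.0 CPM in *SMARCA4* knockdown and 37.0 to 55.2 CPM in *SMARCA1* knockdown, where all 4 libraries lay above both controls. In *SMARCA1* knockdown *COL1A1* rose by 1.21 and *LUM* by 0.92 on the log2 scale, while *COL1A2*, with 15 and 92 counts in the controls and 0 to 2 there, and *COL3A1*, with 7 and 18 against 0 to 3, fell. The summed level of 4 endothelial markers lay between 1.62 and 3.26 CPM over all libraries. The part of such transcripts in the values of the chemokine genes was not tested. No source used here says whether the 2 libraries of a condition came from separate cultures, so p-values measure the spread between libraries, which may be technical. That spread was unequal. Its mean chi-square per gene was 3.82 for *SMARCA1* siRNA C, 6.39 for the controls, 22.7 for *SMARCA4* siRNA B, 43 for *SMARCA4* siRNA A and 60.6 for *SMARCA1* siRNA A. The fit shares a single estimate of the spread of each gene over all conditions.

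Of the 10 genes, 6 lie on chromosome 4 in 2 groups (GRCh38). *CXCL8*, *CXCL1* and *CXCL2* lie within 359 kb (chr4:73740541-74099196), and *CXCL9*, *CXCL10* and *CXCL11* within 40.1 kb (chr4:76001275-76041415). *CCL2* (chr17:34255218-34257203) and *CCL5* (chr17:35871491-35880793) share chromosome 17. *CCL20* is at chr2:227805739-227817564 and *CX3CL1* at chr16:57372477-57385044. The RefSeq promoter table (GRCh38.p14, 250 bases before to 50 bases after each start) held 7 of the 10 genes. *CCL2*, *CCL5* and *CX3CL1* were not in it.

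The promoter stretches of 6 of these genes are printed because they show which of these genes hold the letters of an interferon response element, of an NF-kappaB site or of both. Capitals mark the core of the interferon-stimulated response element (ISRE), 2 short repeats split by 2 free bases, in *CXCL10* and *CXCL9*, and GGAANTTCC, an NF-kappaB site, in *CXCL10*, *CXCL11*, *CXCL8*, *CXCL1* and *CXCL2*. All are read 5′ to 3′ on the strand of the gene. *CXCL10* is chr4:76023548-76023747 (minus strand), *CXCL11* chr4:76036101-76036200 (minus) and *CXCL9* chr4:76007610-76007709 (minus). *CXCL8* is chr4:73740419-73740518 (plus), *CXCL1* chr4:73869263-73869362 (plus) and *CXCL2* chr4:74099226-74099325 (minus). The *CXCL11* stretch lies inside the annotated span of the gene, upstream of the RefSeq start, and none of the 6 stretches overlaps an exon counted here.
CXCL10: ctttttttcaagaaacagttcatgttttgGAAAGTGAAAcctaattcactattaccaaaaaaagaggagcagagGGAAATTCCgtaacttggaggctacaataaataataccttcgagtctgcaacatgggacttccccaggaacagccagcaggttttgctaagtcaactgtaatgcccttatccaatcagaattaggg
CXCL11: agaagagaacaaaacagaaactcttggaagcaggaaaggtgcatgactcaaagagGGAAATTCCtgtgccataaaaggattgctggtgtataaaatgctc
CXCL9: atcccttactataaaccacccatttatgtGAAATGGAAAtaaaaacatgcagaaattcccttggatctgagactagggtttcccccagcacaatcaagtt
CXCL8: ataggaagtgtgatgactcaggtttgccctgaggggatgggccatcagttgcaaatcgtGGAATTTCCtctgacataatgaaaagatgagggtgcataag
CXCL1: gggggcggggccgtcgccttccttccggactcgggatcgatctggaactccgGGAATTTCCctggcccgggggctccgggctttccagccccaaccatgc
CXCL2: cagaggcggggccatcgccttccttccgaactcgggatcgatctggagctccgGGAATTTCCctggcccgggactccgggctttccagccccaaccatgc

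Both strands of the whole window were searched. The ISRE core was found in 2 of the 7 promoters, 221 bases before the start of *CXCL10* and 171 bases before the start of *CXCL9*, and in 3.65% of 27305 promoters of the same length. The NF-kappaB site was found in 5 of 7, between 176 bases (*CXCL10*) and 75 bases (*CXCL11*) before the start, and in 0.967% of all promoters. A looser NF-kappaB consensus was found in 5 of 7, including *CCL20*, and in 10.8% of all promoters, and in *CXCL1*, *CXCL2*, *CXCL10* and *CXCL11* it has a match that includes or overlaps the site. *CXCL10* also holds a separate consensus match, on both strands, 122 bases before the start. The AP-1 letters TGANTCA were found in *CXCL8* and *CXCL11* (7.76% of all promoters) and the GAS letters TTCNNNGAA in *CXCL11* only, with 2 matches (7.88% of all promoters). The *CXCL1* and *CXCL2* stretches share an identical run of 27 bases, and shifted by 1 base they match at 77 of 99 positions. These motifs were chosen with the promoters of such genes known from the field, so the matches describe the windows and show no binding.

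**Figure D1:**
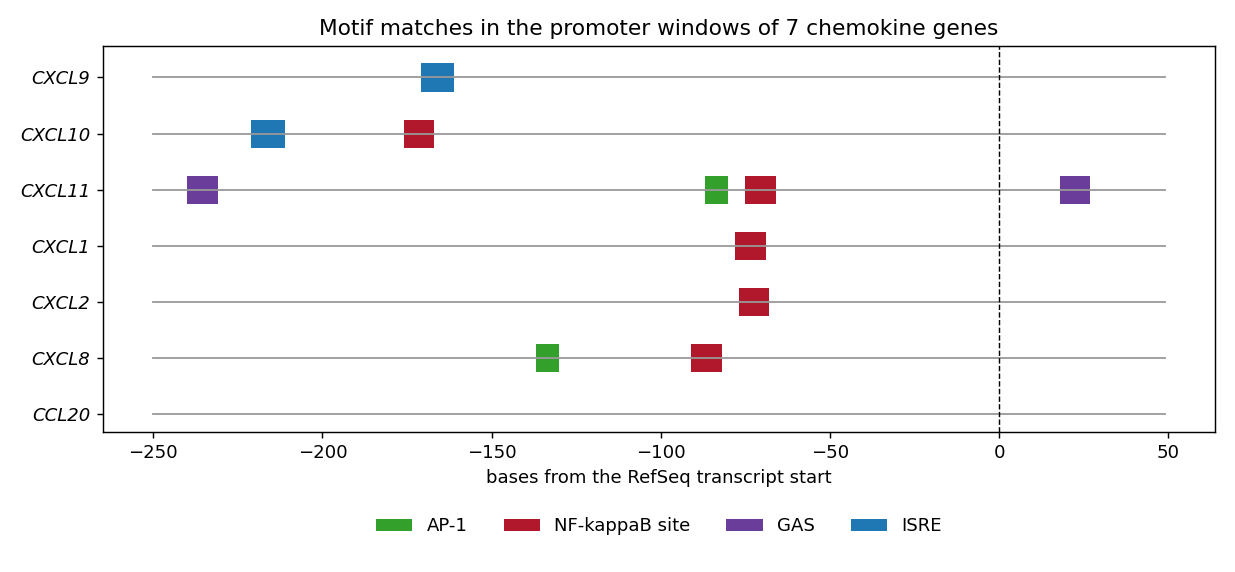
Matches of 4 motifs in the promoter windows of 7 chemokine genes, plotted by distance in bases from the RefSeq transcript start, which is the dashed line. Red blocks mark the NF-kappaB site, present in 5 windows between 176 and 75 bases before the start, and blue blocks the ISRE core, present in *CXCL10* and *CXCL9*.

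Every one of the 10 genes was higher in both knockdowns than in the controls. In *SMARCA4* knockdown, 10 of 10 rose at an adjusted p below 0.05, against 22.8% of the 16899 genes tested that rose. In *SMARCA1* knockdown, 10 of 10 rose as well, against 23.8% of all genes tested. The median log2 fold change of the 10 genes was 5.39 for *SMARCA4* knockdown and 4.83 for *SMARCA1* knockdown. The median of all genes tested was 0.00 and -0.00. For all 10 genes, each of the 8 knockdown libraries lay above both controls, a separation seen in 19.6% of all genes tested. With each siRNA alone, 10 of 10 rose again, beside 17.4% and 23.0% of all genes for siRNAs A and B against *SMARCA4*, and 18.5% and 23.8% for siRNAs A and C against *SMARCA1*. The 10 genes were chosen with earlier results of these data known, so the comparison with these shares is descriptive only. Both knockdowns were compared with the same 2 controls, so their fold changes are not independent of each other. In bulk RNA, more cells that transcribe a gene and more transcript per cell cannot be told apart.

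**Figure D2:**
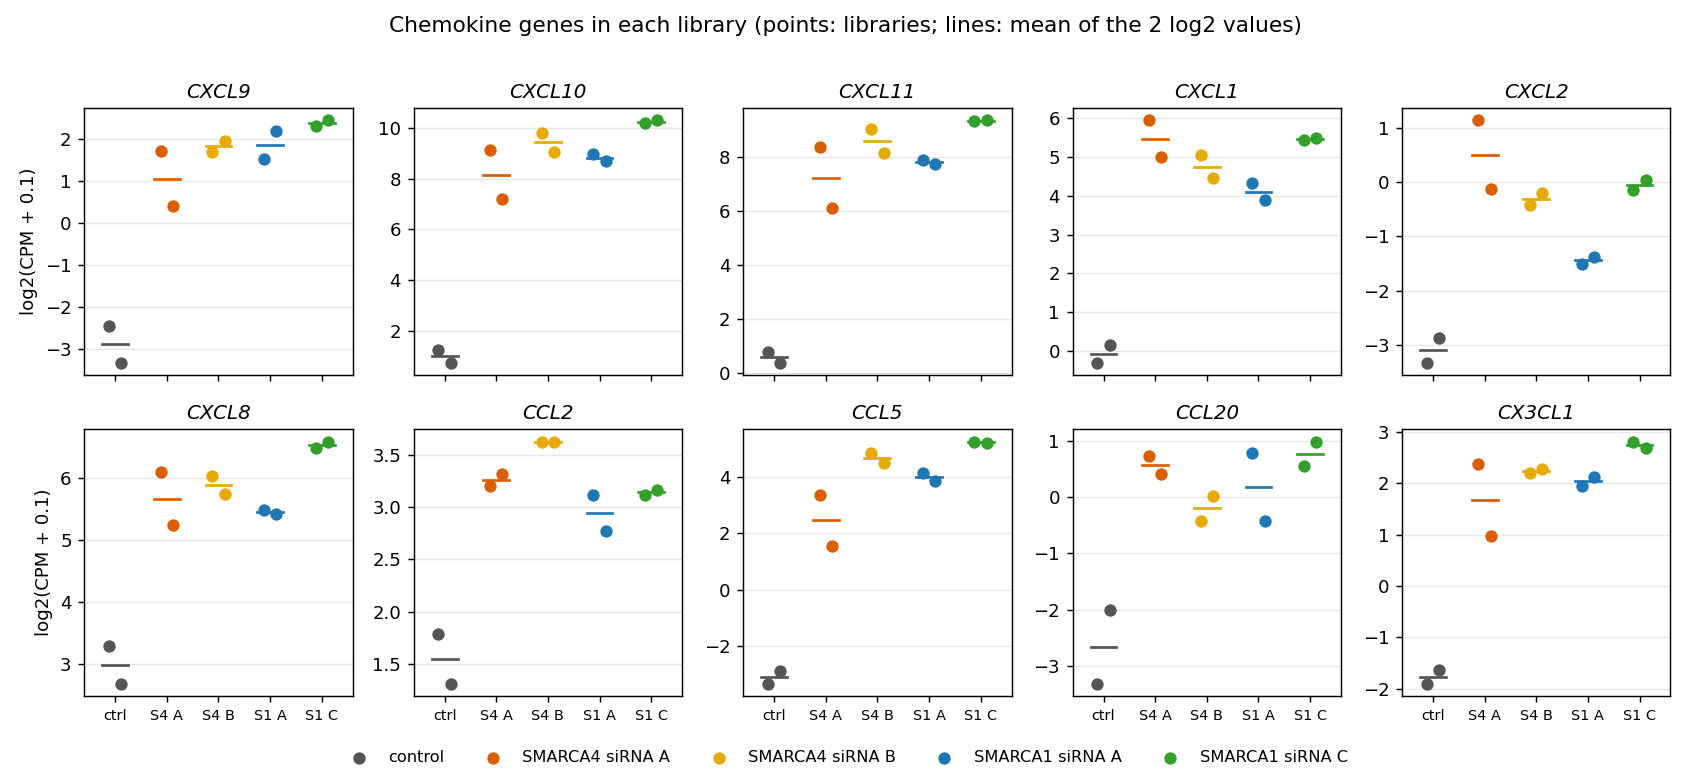
Expression of the 10 chemokine genes in each library, as log2(CPM + 0.1), for the control (ctrl), *SMARCA4* siRNA A and B (S4 A, S4 B) and *SMARCA1* siRNA A and C (S1 A, S1 C). Points are libraries and lines the mean of the 2 log2 values; in every panel the 8 knockdown libraries lie above both controls.

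Of the CXCR3 ligand genes, *CXCL10* and *CXCL11* reached the highest levels. *CXCL10* was at 2.26 and 1.56 CPM in the controls (54 and 42 counts). The pairs of *SMARCA4* libraries were at 558 and 147 CPM (siRNA A) and 902 and 529 CPM (siRNA B), and those of *SMARCA1* at 497 and 412 CPM (siRNA A) and 1162 and 1256 CPM (siRNA C). The lowest knockdown library, with *SMARCA4* siRNA A, was thus far above both controls, and the 2 libraries of that siRNA lay further apart than those of any other condition. *CXCL10* rose by 8.04 on the log2 scale in *SMARCA4* knockdown (SE 0.66, adjusted p = 1.9e-05) and by 8.61 in *SMARCA1* knockdown (SE 0.67, adjusted p = 2.2e-05). These are 264-fold and 390-fold changes.

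*CXCL11*, the CXCR3 ligand with the highest receptor affinity, followed the same order of libraries. It was at 1.59 and 1.19 CPM in the controls (38 and 32 counts). The pairs of *SMARCA4* libraries were at 326.0 and 69.0 CPM (siRNA A) and 518 and 284 CPM (siRNA B), and those of *SMARCA1* at 235 and 214 CPM (siRNA A) and 642 and 652 CPM (siRNA C). The rise was 7.67 in *SMARCA4* knockdown (SE 0.74, adjusted p = 4.2e-05) and 8.10 in *SMARCA1* knockdown (SE 0.75, adjusted p = 5.5e-05), on the log2 scale. *CXCL10* had more counts than *CXCL11* in every library, by 1.31 and 1.42 times in the controls and by 1.71 to 2.12 times in the knockdown libraries.

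*CXCL9*, the third CXCR3 ligand gene and known as a target of interferon gamma in particular, stayed at a lower level. It had 2 and 0 counts in the controls. With *SMARCA4* siRNAs it had 90 and 39 (A) and 101 and 107 counts (B), and with *SMARCA1* siRNAs 76 and 110 (A) and 151 and 177 counts (C). Every knockdown library was above both controls, at 1.23 to 5.30 CPM. *CXCL9* rose by 5.96 (SE 0.77, adjusted p = 0.00021) and by 6.61 (SE 0.73, adjusted p = 0.00013) on the log2 scale. With so few control counts the size is loosely bounded, and the ratio of count rates was 70.6 in *SMARCA4* knockdown (95% interval 19.4 to 585) and 112 in *SMARCA1* knockdown (30.8 to 925). *IFNG*, the gene of interferon gamma, was at 0 counts in all 10 libraries, and the upper limit taken for 0 counts was 0.0865 to 0.126 CPM.

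Among the ELR chemokine genes, *CXCL8* was the one with the highest control level. *CXCL8*, the gene of interleukin 8, was at 9.66 and 6.32 CPM in the controls. The pairs of *SMARCA4* libraries were at 68.3 and 38.0 CPM (siRNA A) and 66.0 and 53.8 CPM (siRNA B), and those of *SMARCA1* at 44.7 and 43.1 CPM (siRNA A) and 89.8 and 96.6 CPM (siRNA C). No knockdown library came near the controls, and *SMARCA1* siRNA C gave the highest pair. The rise was 7.08-fold in *SMARCA4* knockdown (2.82 on the log2 scale, SE 0.26, adjusted p = 3.3e-05) and 8.03-fold in *SMARCA1* knockdown (3.0, SE 0.26, adjusted p = 4.3e-05).

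*CXCL1*, a neutrophil chemoattractant, started lower and rose more. It was at 0.711 and 1.00 CPM in the controls (17 and 27 counts). The pairs of *SMARCA4* libraries were at 61.3 and 32.0 CPM (siRNA A) and 33.2 and 21.7 CPM (siRNA B), and those of *SMARCA1* at 19.8 and 14.7 CPM (siRNA A) and 43.1 and 44.4 CPM (siRNA C). The highest library was 1 of *SMARCA4* siRNA A and the lowest pair that of *SMARCA1* siRNA A. The rise was 41.2-fold in *SMARCA4* knockdown (5.37 on the log2 scale, SE 0.39, adjusted p = 9.4e-06) and 31.7-fold in *SMARCA1* knockdown (4.99, SE 0.39, adjusted p = 2.1e-05). *CXCL8* had 13.6 and 6.30 times the counts of *CXCL1* in the controls and 1.11 to 2.92 times in the knockdown libraries.

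*CXCL2*, the close paralog of *CXCL1*, stayed at or below 2.1 CPM everywhere. It had 0 and 1 counts in the controls. With *SMARCA4* siRNAs it had 60 and 26 (A) and 21 and 22 counts (B), and with *SMARCA1* siRNAs 7 and 7 (A) and 25 and 31 counts (C). The library of *SMARCA4* siRNA A with 60 counts stood alone, and those of *SMARCA1* siRNA A were lowest. *CXCL2* rose by 5.41 (SE 0.83, adjusted p = 0.00059) and 4.34 (SE 0.95, adjusted p = 0.0043) on the log2 scale, and the ratio of count rates was 54.1 (95% interval 9.53 to 2151) and 30.4 (5.29 to 1219). *CXCL1*, *CXCL2* and *CXCL3* are similar in sequence, and how reads that align to more than 1 of them were counted is not given in the sources used here.

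Of the CC chemokine genes, *CCL5* (RANTES) changed most and *CCL2* (MCP-1) least. *CCL5* had 0 and 1 counts in the controls. With *SMARCA4* siRNAs it had 291 and 91 (A) and 929 and 628 counts (B), and with *SMARCA1* siRNAs 477 and 353 (A) and 1181 and 1213 counts (C), so that the libraries of the 4 siRNAs did not overlap. The knockdown libraries ran from 2.86 to 37.8 CPM. *CCL5* rose by 9.06 (SE 0.92, adjusted p = 5.5e-05) and 9.98 (SE 0.87, adjusted p = 4.3e-05) on the log2 scale, the 14th and 6th largest fitted rise among 16899 genes. The ratio of count rates was 813 in *SMARCA4* knockdown (95% interval 146 to 32109) and 1402 in *SMARCA1* knockdown (251 to 55388). It rests on 1 control count, and the intervals leave out the spread between libraries.

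*CCL2* was at 3.35 and 2.38 CPM in the controls (80 and 64 counts). The pairs of *SMARCA4* libraries were at 9.08 and 9.87 CPM (siRNA A) and 12.2 and 12.2 CPM (siRNA B), and those of *SMARCA1* at 8.53 and 6.70 CPM (siRNA A) and 8.54 and 8.87 CPM (siRNA C). The groups did not overlap with the controls, and the *SMARCA4* libraries were all above the *SMARCA1* libraries. The rise was 3.77-fold (1.91 on the log2 scale, SE 0.18, adjusted p = 3.3e-05) and 2.86-fold (1.51, SE 0.18, adjusted p = 0.00016), which ranked 722nd and 1196th among all genes tested.

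*CCL20*, which attracts CCR6-bearing dendritic cells and T cells, had 0 and 4 counts in the controls. With *SMARCA4* siRNAs it had 45 and 39 (A) and 21 and 26 counts (B), and with *SMARCA1* siRNAs 45 and 16 (A) and 43 and 63 counts (C). The knockdown libraries lay between 0.649 and 1.89 CPM and the siRNA groups of the 2 targets overlapped. *CCL20* rose by 3.66 (SE 0.73, adjusted p = 0.0026) and 4.06 (SE 0.71, adjusted p = 0.0013) on the log2 scale, and the ratio of count rates was 13.7 (95% interval 5.23 to 51.1) and 18.2 (6.96 to 67.4).

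*CX3CL1*, the membrane-bound chemokine gene, had 4 and 6 counts in the controls. With *SMARCA4* siRNAs it had 145 and 59 (A) and 145 and 136 counts (B), and with *SMARCA1* siRNAs 104 and 105 (A) and 216 and 211 counts (C). The lowest knockdown library, 1 of *SMARCA4* siRNA A, was at 1.85 CPM against at most 0.223 CPM in the controls. *CX3CL1* rose by 4.31 (SE 0.51, adjusted p = 0.00013) and 4.68 (SE 0.50, adjusted p = 0.00011) on the log2 scale, and the ratio of count rates was 20.3 (95% interval 11 to 42.7) and 27.7 (14.9 to 58.0). All exact 95% intervals of such ratios given here cover counting error only, not the spread between libraries.

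**Figure D3:**
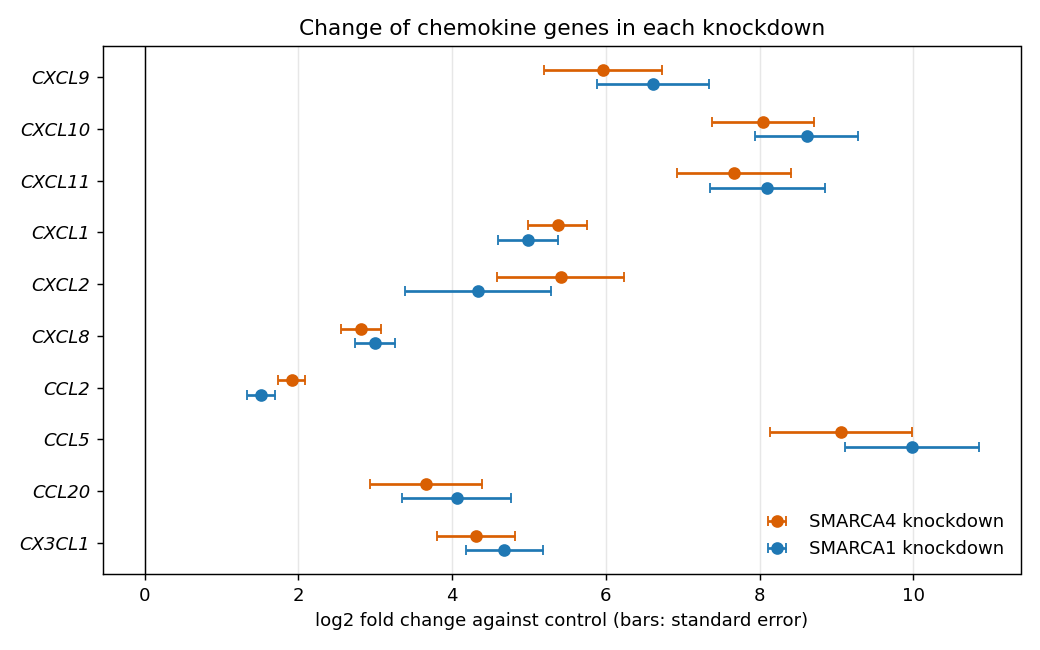
Log2 fold change of each chemokine gene against control in *SMARCA4* knockdown (orange) and *SMARCA1* knockdown (blue), with bars for the standard error of the edgeR fit. The points run from 1.51 for *CCL2* to 9.98 for *CCL5*, and the 2 knockdowns share their controls.

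Which chemokine transcript dominated changed between control and knockdown. The 10 genes together took 0.00178% and 0.00131% of all counts in the controls. Their share was 0.0310% to 0.156% in *SMARCA4* knockdown and 0.0721% to 0.203% in *SMARCA1* knockdown. *CXCL10* and *CXCL11* made up 21.6% and 21.3% of the counts of the 10 genes in the controls. They made up 71.0% to 90.5% in *SMARCA4* knockdown and 87.6% to 90.5% in *SMARCA1* knockdown.

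Levels can be compared between genes per length, as CPM per kb of exon in the annotation of the files. In the controls *CXCL8* was highest, at 3.57 CPM per kb (range 2.82 to 4.31), above *CXCL10* at 1.63 (1.33 to 1.92) and *CCL2* at 1.44 (1.20 to 1.68), which overlapped with each other. *CXCL11* at 0.780 (0.668 to 0.892) and *CXCL1* at 0.629 (0.522 to 0.737) also overlapped, and the other 5 genes were at or below 0.0932 CPM per kb. In *SMARCA4* knockdown *CXCL10* was at 454 ± 263 CPM per kb (SD, n = 4) and *CXCL11* at 168 ± 103, while *CXCL1* at 27.2 ± 12.5 and *CXCL8* at 25.2 ± 6.20 differed by less than their spread. *CCL5* was at 10.6 ± 7.75 and *CCL2* at 5.46 ± 0.812. *CXCL9* at 1.02 ± 0.397, *CXCL2* at 0.775 ± 0.485, *CCL20* at 0.684 ± 0.250 and *CX3CL1* at 0.678 ± 0.248 CPM per kb were not separated by their spread.

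In *SMARCA1* knockdown the order began in the same way, with *CXCL10* at 708 ± 373 and *CXCL11* at 245 ± 137 CPM per kb (SD, n = 4). *CXCL8* at 30.6 ± 12.8, *CXCL1* at 22.4 ± 11.3 and *CCL5* at 17.6 ± 8.24 followed, and neighbours among them differed by less than their spread over libraries. Within each *SMARCA1* knockdown library, however, *CXCL8* was above *CXCL1* and *CXCL1* above *CCL5*. *CCL2* was at 4.11 ± 0.496 and *CXCL9* at 1.57 ± 0.404. *CX3CL1* at 0.892 ± 0.258, *CCL20* at 0.869 ± 0.334 and *CXCL2* at 0.405 ± 0.249 CPM per kb were lowest. *CCL2* thus went from a level near that of *CXCL10* in the controls to one far below it in both knockdowns.

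**Figure D4:**
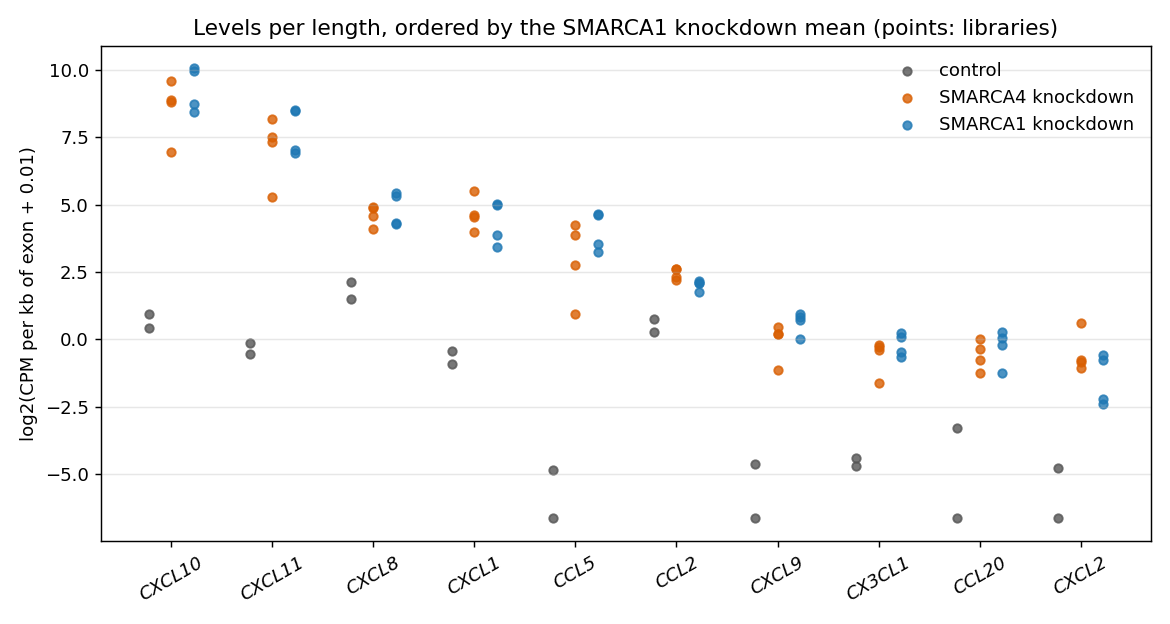
Level of each chemokine gene per length, as log2(CPM per kb of exon + 0.01), in control, *SMARCA4* knockdown and *SMARCA1* knockdown libraries (points), ordered by the mean in *SMARCA1* knockdown. *CXCL10* and *CXCL11* were highest in both knockdowns, and *CXCL8* was highest in the controls.

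Between the knockdowns, 3 of the 10 genes differed at an adjusted p below 0.05, where 35.4% of all genes tested did. *CXCL2* was higher in *SMARCA4* knockdown by 1.06 on the log2 scale (95% interval 0.27 to 1.86, adjusted p = 0.042), and *CCL2* was higher by 0.40 (0.12 to 0.68, adjusted p = 0.031). *CCL5* was lower in *SMARCA4* knockdown, by -0.92 on the log2 scale (-1.55 to -0.28, adjusted p = 0.031). The other 7 did not pass, and their intervals leave room for differences in either direction or close to it. The difference was 0.38 (-0.08 to 0.84) for *CXCL1*, -0.18 (-0.58 to 0.21) for *CXCL8*, -0.65 (-1.27 to -0.02, adjusted p = 0.098) for *CXCL9*, -0.56 (-1.30 to 0.18) for *CXCL10* and -0.44 (-1.26 to 0.39) for *CXCL11*. It was -0.40 (-1.15 to 0.36) for *CCL20* and -0.37 (-0.91 to 0.18) for *CX3CL1*.

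These 3 calls depended on single libraries and on the siRNA. With *SMARCA4* siRNA B and *SMARCA1* siRNA C alone, 0 of 10 passed in edgeR (3 at an unadjusted p below 0.05), where 17.8% of all genes did, *CXCL2* was at -0.29 and *CXCL1* at -0.67. With siRNA A of each target, *CXCL1* (1.43, adjusted p = 0.0093) and *CXCL2* (2.41, adjusted p = 0.012) passed, where 21.5% of all genes did, and *CCL5* was at -1.29 (adjusted p = 0.052). With 1 library left out at a time, calls between the knockdowns were lost or gained. Such fits leave 1 library in a condition, so only sizes are given. The difference between the knockdowns then ran from 0.67 to 1.34 for *CXCL2* and from 0.33 to 0.50 for *CCL2*. For *CCL5* it ran from -1.49 to -0.58.

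The siRNAs of each target were also compared with each other. Both *SMARCA1* siRNA A libraries lay below both siRNA C libraries for 9 of 10 genes, all but *CCL20*, where 26.4% of all genes tested were arranged so. The differences of siRNA A from siRNA C ran from -0.19 (*CCL2*) to -1.68 (*CXCL2*) on the log2 scale, and *CXCL10* was at -1.41 (95% interval -2.47 to -0.35, adjusted p = 0.19). In edgeR 0 of 10 passed, where 0.0118% of all genes did, with 6 of 10 at an unadjusted p below 0.05. DESeq2 called 3, *CXCL1*, *CXCL8* and *CCL5*. The remaining *SMARCA1* transcript was at 3.40 and 1.75 CPM after siRNA A, against 3.20 and 2.85 CPM after siRNA C.

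Of the *SMARCA4* siRNAs, A was lower than B without overlap for 2 of 10 genes (26.8% of all genes tested) and higher without overlap for 2 (29.8%), and 6 overlapped. *CCL5* was the 1 gene that passed, at -1.97 for A against B (SE 0.42, adjusted p = 0.026), where 6.20% of all genes did. The 2 libraries of siRNA A were far apart for several genes. Replicate 1 was the highest of the 4 *SMARCA4* libraries for 5 genes and replicate 2 the lowest for 6, and from the lowest to the highest *SMARCA4* library *CCL5* spanned 10.04-fold, *CXCL11* 7.50-fold and *CXCL10* 6.15-fold. Without replicate 2 of siRNA A, *CCL5* was at -1.33 (adjusted p = 0.055), and without siRNA B replicate 1 or 2 at -1.79 (adjusted p = 0.12) and -2.14 (adjusted p = 0.075). Without replicate 1 of siRNA A, *CXCL10* was at -2.28 and *CXCL11* at -2.53. *SMARCA4* itself was at 25.2 and 23.2 CPM after siRNA A, against 18.6 and 13.3 CPM after siRNA B.

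**Figure D5:**
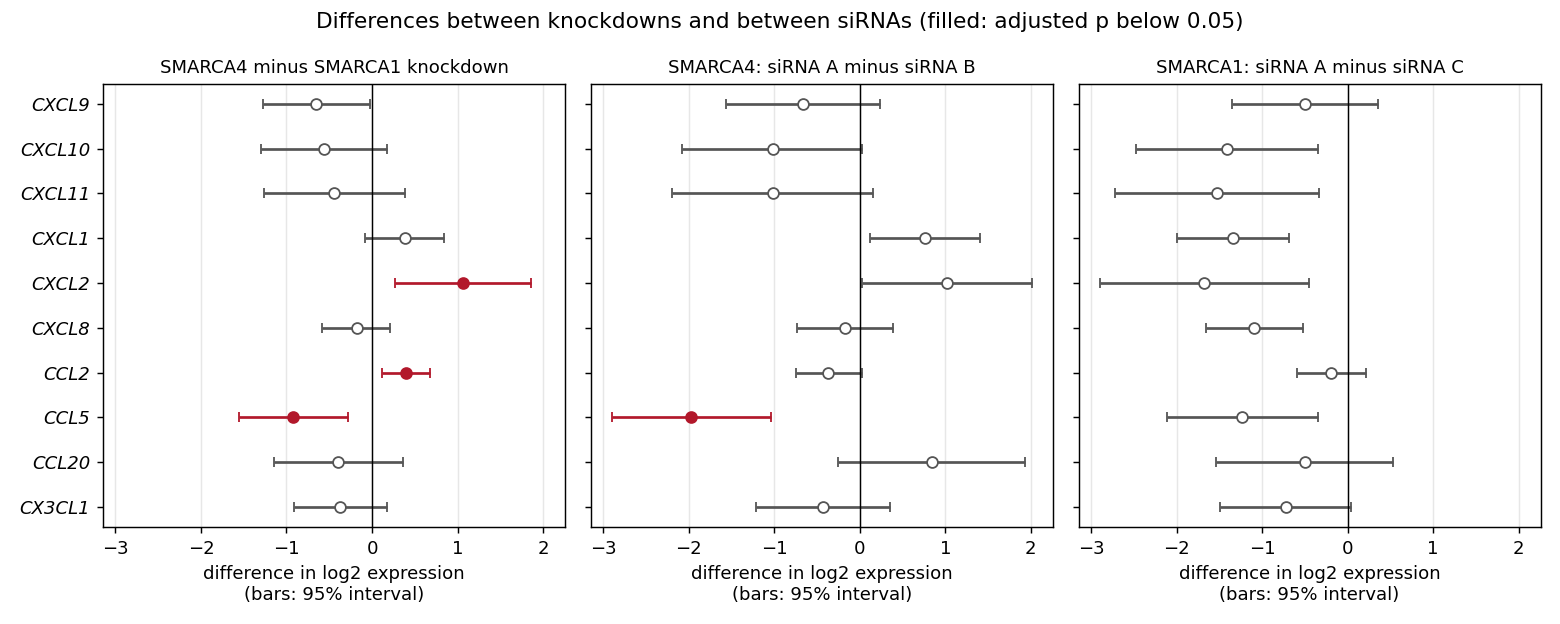
Differences in log2 expression of the 10 chemokine genes between the knockdowns (left) and between the siRNAs of each target (middle and right), with 95% intervals from the edgeR fit and filled points where the adjusted p is below 0.05. *CXCL2*, *CCL2* and *CCL5* are filled on the left, *CCL5* in the middle and none on the right, where all 10 points lie below 0.

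Most other chemokine ligand genes had too few counts to be tested, and of those tested more rose than fell. Of 35 other chemokine ligand genes, 15 were at 0 counts in every library and 8 had enough counts to be tested. Of these 8, 4 rose and 1 fell in *SMARCA4* knockdown and 6 rose and 1 fell in *SMARCA1* knockdown. The median log2 fold changes of the 8 were 1.51 and 1.81. Of all genes tested, 22.8% and 23.8% rose. *CXCL3*, the third gene of the *CXCL1* and *CXCL2* group, rose by 2.58 and 2.05 on the log2 scale, and *CXCL6*, another ELR chemokine gene, by 1.82 and 1.57. *CXCL16*, a membrane-bound ligand of CXCR6, was already at 20.9 CPM in the controls and rose by 1.20 and 1.27. *CCL4L2*, a near-identical copy of *CCL4*, had 0 counts in the controls and 2 to 28 in the knockdown libraries. *CCL28*, a mucosal chemokine gene chosen after its values were seen, fell by 0.54 and 1.27.

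Most receptor genes, too, had too few counts to be tested. Of 23 receptor genes, 5 (*CXCR2*, *CXCR3*, *CCR6*, *CCR9* and *ACKR1*) were at 0 counts in all 10 libraries, so transcripts of CXCR2 and CXCR3 were not detectable at this depth. Only 7 were tested, of which 1 rose in *SMARCA4* knockdown and 3 in *SMARCA1* knockdown. Of all genes tested, 22.8% and 23.8% rose. *ACKR4*, an atypical receptor that scavenges CC chemokines, had 0 counts in both controls and 5 to 26 in the knockdown libraries. Against a floor of 3 counts over the control group it was 7.68-fold higher in *SMARCA4* and 9.42-fold higher in *SMARCA1* knockdown. The exact 95% interval of the ratio, which also covers the counting error of the knockdown libraries, began at 6.04 and 7.45. *ACKR3*, the atypical receptor of CXCL11 and CXCL12, was at 10.7 ± 0.0815 CPM in the controls (SD, n = 2), and its differences of -0.07 and 0.13 on the log2 scale did not pass (adjusted p = 0.75 and 0.53). The second value averages siRNAs that moved *ACKR3* in opposite directions. It fell by 0.72 with *SMARCA1* siRNA A (adjusted p = 0.014) and rose by 0.97 with siRNA C (adjusted p = 0.0017), and it was 1 of the 2 genes called between them (-1.69, adjusted p = 0.025).

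The genes of 3 proteases that trim or shed chemokines were expressed in all conditions, and all 3 are given although none was called in both knockdowns. *DPP4*, whose product removes the first residues of the CXCR3 ligands and CCL5, fell by 0.45 on the log2 scale in *SMARCA1* knockdown (SE 0.08, adjusted p = 0.0017) and was at -0.20 in *SMARCA4* knockdown (adjusted p = 0.078). Of the genes of the sheddases of CX3CL1 and CXCL16, *ADAM17* rose by 0.64 in *SMARCA4* knockdown (SE 0.14, adjusted p = 0.0043) and was at 0.31 in *SMARCA1* knockdown (adjusted p = 0.089). *ADAM10* was at 0.41 and -0.21 (adjusted p = 0.08 and 0.34).

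Genes of the NF-kappaB pathway, which the ELR chemokine genes and *CCL20* are known to respond to, rose in both knockdowns. Of 20 such genes 15 were tested, and 13 rose in each knockdown, with median log2 fold changes of 1.31 and 1.18. Of all genes tested, 22.8% rose in *SMARCA4* knockdown and 23.8% in *SMARCA1* knockdown. The list was chosen with earlier results of these data known, and its part in the change of the chemokine genes was not tested. *BIRC3*, an apoptosis inhibitor gene, rose by 3.65 and 3.60, *TNFAIP3*, the gene of the feedback inhibitor A20, by 3.30 and 3.28, and *NFKBIZ*, an inhibitor family gene, by 2.21 and 1.73. *NFKBIA*, the gene of IkappaB alpha, rose by 1.37 (SE 0.14, adjusted p = 6.5e-05) and 1.47 (SE 0.14, adjusted p = 6.9e-05). Transcripts of the cytokines TNF and interleukin 6 stayed scarce. *TNF* had 0 counts in the controls and 0 to 7 in the knockdown libraries and was not tested. *IL6* had 0 counts in the controls and 0 to 18 in the knockdown libraries. Against a floor of 3 counts over the control group it was 4.05-fold and 5.51-fold higher, with exact 95% intervals that began at 3.09 and 4.27.

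Genes of the interferon and IRF-STAT pathway, which the CXCR3 ligand genes and *CCL5* are known to respond to, rose in both knockdowns as well. Of 22 such genes 20 were tested, and 17 rose in *SMARCA4* knockdown and 19 in *SMARCA1* knockdown. Their median log2 fold changes were 2.49 and 1.83, and 22.8% and 23.8% of all genes tested rose. This list, too, was chosen with earlier results known, and its part in the change of the chemokine genes was not tested. *IFNB1*, the interferon beta gene, had 0 counts in both controls. With *SMARCA4* siRNAs it had 97 and 43 (A) and 178 and 188 counts (B), and with *SMARCA1* siRNAs 74 and 85 (A) and 317 and 315 counts (C). Against the same floor it was 70.7-fold and 115-fold higher, with exact 95% intervals that began at 57.3 and 93.0. *IFNL1*, a type III interferon gene, had 0 and 1 counts in the controls and 184 to 1130 in the knockdown libraries. *IFNL2* and *IFNL3*, whose sequences are nearly identical, rose with it.

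*IRF1*, a transcription factor gene of this pathway, was already expressed in the controls. It was at 13.5 and 13.6 CPM in the controls and at 65.0 to 191 CPM in the knockdown libraries, and rose by 3.27 (SE 0.26, adjusted p = 1.7e-05) and 3.36 (SE 0.26, adjusted p = 2.3e-05). *SMARCA4* siRNA A replicate 2 was the lowest knockdown library for *IRF1*. It was also the lowest of the *SMARCA4* libraries for 6 chemokine genes, *CXCL8*, *CXCL9*, *CXCL10*, *CXCL11*, *CCL5* and *CX3CL1*. The part of *IRF1* in the change of the chemokine genes was not tested.

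The genes whose levels followed 2 of the chemokines most closely were found among 13581 genes outside the lists, by Pearson's r of log2 CPM, as a description across libraries that share the knockdowns. Over all 10 libraries, those closest to *CXCL10* were *XAF1* (r = 0.9985), *MX2* (0.9985), *PARP10* (0.9978), *LAP3* (0.9977) and *SP100* (0.9972). Over the 8 knockdown libraries alone they were *PLEKHN1* (0.9965), *XAF1* (0.9934), *SP100* (0.9912), *STAT5A* (0.9910) and *OAS2* (0.9888). These lists include *MX2* and *OAS2*, which are known as interferon-induced antiviral genes. Those closest to *CXCL8* over 10 libraries were *ATF3* (0.9913), a stress-induced transcription factor gene, *CALCOCO2* (0.9912), *SMPD3* (0.9898), *KLF4* (0.9894) and *RNF19B* (0.9876). Over the 8 knockdown libraries they included *RIN2* (0.9851), *SMPD3* (0.9832), *MAX* (0.9712) and *SEMA4D* (0.9634), and no gene was among the closest 5 of both chemokines.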

How the data were processed

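The authors deposited raw counts per gene, as whole numbers that were not normalized. The authors made polyA-selected, strand-specific libraries, trimmed adaptors, aligned reads to GRCh38 (hg38) with HISAT2 2.1.0 and counted them with featureCounts 1.5.2 on GENCODE annotation. Versions are from the submitters' processing notes. The handling of reads with several alignments is not given in the sources used here, and it could split counts of near-identical genes.

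Groups came from the sample titles. The 10 chemokine genes, the pathway, receptor and marker lists and the promoter motifs were chosen with earlier results of these data known. Genes were kept by filterByExpr (minimum count 10, minimum total 15) in edgeR 4.0.16 (R 4.3.3), leaving 16899 genes. The quasi-likelihood test (glmQLFit, glmQLFTest) with TMM was fitted to all 10 libraries as 5 groups, each knockdown being the mean of its 2 siRNA groups. Adjustment was by Benjamini-Hochberg over all genes tested, with calls below 0.05. Standard errors were derived from F and the log2 fold change. CPM values are scaled by TMM. Fitted fold changes of genes near 0 depend on the prior count, so ratios of summed counts with exact 95% intervals are given beside them. All 10 chemokine genes are named. From each list of pathway, ligand and receptor genes, up to 4 with the largest fold change among those called in both knockdowns are named, with *NFKBIA*, *TNF*, *IL6*, *IRF1*, *IFNB1*, *IFNL1*, *CXCR3*, *CXCR2* and *ACKR3*. Some items that these rules select are not reported here. The model was tested on simulated data. Total counts per library and their floors are given with the results. Alternatives were DESeq2 1.42.0, other normalizations and filters, a replicate block, single siRNAs, fits of the compared libraries alone and each library left out.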

Additional observations from a re-analysis of the deposited data

Results flagged for a closer look

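In 2 of 20 sets of 4 knockdown libraries, 1 library stood apart from the other 3 by Dixon's ratio, the gap to the nearest library over the whole range (95% level). About 1 in 20 sets would pass by chance if the sets were independent and their 4 libraries alike. Here each set mixes 2 siRNAs and the sets share libraries, so that rate is only a guide. For *CXCL2* in *SMARCA4* knockdown, siRNA A replicate 1 was high, with a ratio of 0.884. It had 60 counts, against 21 to 26 in the other 3 libraries. For *CCL2* in *SMARCA1* knockdown, siRNA A replicate 2 was low, with a ratio of 0.844. It was at 6.70 CPM, against 8.53 to 8.87 CPM in the other 3. *CCL5* differed between the 2 *SMARCA4* siRNAs, at -1.97 on the log2 scale for siRNA A against siRNA B (adjusted p = 0.026 in edgeR), with both libraries of A below both of B.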

How the results depend on the processing

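In both knockdowns against control, 10 of 10 chemokine genes rose under each normalization, DESeq2, no filter, the replicate block, the fit of the compared libraries alone, each siRNA alone and each library left out (10 to 10). With a filter of CPM above 1 in at least 2 libraries, 9 rose of the 9 tested, since *CXCL2* was removed. With libraries left out, fitted log2 fold changes of the genes with a control library at 0 counts moved widely in *SMARCA4* and *SMARCA1* knockdown: *CCL20* from 2.81 to 7.94 and 3.20 to 8.32, *CXCL9* from 4.99 to 9.34 and 5.62 to 9.97, *CXCL2* from 4.65 to 7.90 and 3.58 to 6.82, and *CCL5* from 8.31 to 11.55 and 9.22 to 12.46. The highest values came without control replicate 1 for *CXCL9* and without control replicate 2 for the other 3. Between the knockdowns, where 3 genes passed, 7 passed with no filter and 0 with *SMARCA4* siRNA B and *SMARCA1* siRNA C alone. How many of all genes passed between the knockdowns with no filter is not given here. Between the *SMARCA4* siRNAs, where 1 passed, 4 passed with no filter. Between the *SMARCA1* siRNAs, where 0 passed, 3 passed in DESeq2 and 6 with no filter. With a library left out, calls between the knockdowns and between the *SMARCA4* siRNAs changed. Over all genes, the *SMARCA1* siRNAs gave 2 calls, against 516 in DESeq2, 1276 with no filter and 16 with the replicate block. The *SMARCA4* siRNAs gave 1048, against 1674 in DESeq2 and 2352 with no filter. The cause was not tested.

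Directions turned in 9 values, none of which passed. Between the knockdowns these were *CXCL8* (0.28) and *CCL20* (0.28) with siRNA A of each target, and *CXCL1* (-0.67) and *CXCL2* (-0.29) with *SMARCA4* siRNA B and *SMARCA1* siRNA C. With a library left out, *CXCL8* ran from -0.41 to 0.01 (turned without *SMARCA4* siRNA A replicate 2) and *CCL20* from -0.64 to 0.02 (*SMARCA1* siRNA A replicate 1). Between the *SMARCA4* siRNAs *CXCL8* ran from -0.65 to 0.18 and *CX3CL1* from -1.32 to 0.12 (siRNA A replicate 2), and between the *SMARCA1* siRNAs *CCL20* from -1.31 to 0.02 (siRNA A replicate 2). In DESeq2, *CXCL2* between the knockdowns was at 1.08 (adjusted p = 0.054). The replicate number as a block gave 10, 10, 3, 1 and 0 calls in the 5 comparisons and changed no call. Deviations of same-numbered libraries correlated between -0.10 and 0.36 over 10 pairs of conditions, so the numbers were not taken as pairs. With 2 libraries per condition and 4 or fewer control counts in all for *CXCL2*, *CXCL9*, *CCL5* and *CCL20*, the size of their rise is loosely bounded.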
